A study of Mus musculus with 13 samples.

Results

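In transplanted mouse bone marrow carrying the guide combination called BRSST, a small set of genes was higher where a guide against Ezh2 had been added, among them Ryk, Zfyve9, Plag1, Igf2bp3 and Bmi1. The comparison set 4 arrays of BRSST+sgEzh2 marrow against 5 arrays of BRSST+sgLuc marrow, 9 of the 13 arrays in the series, with groups taken from the sample labels and not from any measured value. In all groups, LSK cells (a marrow fraction enriched in blood stem and progenitor cells) of Cas9 knock-in mice received guides and went 24 h later into C57Bl/6J mice irradiated with 7 Gy. The first group carried the BRSST combination with an Ezh2 guide and the second the same combination with sgLuc, a guide named after luciferase that serves as the control. The remaining 4 arrays, of marrow with sgLuc and no BRSST guides, were used as a reference level and to estimate the spread. Complete marrow was taken at signs of leukemia or after 6 months, and the labels do not say which applies to a sample, nor the age of the mice. BRSST is not spelled out in the labels. The labels do not tie each array to a mouse of its own. The p-values therefore reflect how these samples vary, part of which may be technical. Whole marrow also holds cells of the irradiated host and cells that escaped editing, and the edited share of each sample was not analysed here.

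Ezh2 is the catalytic subunit of Polycomb repressive complex 2 (PRC2), which places a repressive methyl mark on histone H3 at many CpG-rich promoters and thereby keeps developmental genes silent. Loss of EZH2 is known from human myeloid neoplasms, where it occurs together with mutations in other regulators. Polycomb repressive complex 1 (PRC1), of which Bmi1 is a subunit, reads that mark and adds ubiquitin to histone H2A.

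Because PRC2 is known for CpG-rich promoters, the 250 bases before the RefSeq start (build GRCm38.p6) are shown for 5 of the rises that passed with and without the sgLuc arrays in the fit, 5′ to 3′ on the gene's strand, with CpG pairs in capitals. Of the 10601 genes tested, 8675 had a promoter in the RefSeq table, with a median of 15 CpG pairs in these 250 bases. The most upstream start listed for each gene was used.
Ryk (chr9:102834670-102834919, plus strand): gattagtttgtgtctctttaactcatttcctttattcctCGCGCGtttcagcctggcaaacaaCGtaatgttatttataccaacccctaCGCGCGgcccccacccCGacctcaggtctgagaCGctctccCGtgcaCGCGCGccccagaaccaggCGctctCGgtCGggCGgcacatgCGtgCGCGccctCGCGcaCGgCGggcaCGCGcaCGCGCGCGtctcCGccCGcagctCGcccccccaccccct
Dip2c (chr13:9276275-9276524, plus strand): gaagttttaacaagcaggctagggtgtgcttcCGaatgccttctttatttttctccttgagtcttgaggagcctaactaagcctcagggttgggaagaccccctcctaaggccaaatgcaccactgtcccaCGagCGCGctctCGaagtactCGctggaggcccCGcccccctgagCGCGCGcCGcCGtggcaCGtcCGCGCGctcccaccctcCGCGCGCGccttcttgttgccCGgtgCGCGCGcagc
Bmi1 (chr2:18676768-18677017, plus strand): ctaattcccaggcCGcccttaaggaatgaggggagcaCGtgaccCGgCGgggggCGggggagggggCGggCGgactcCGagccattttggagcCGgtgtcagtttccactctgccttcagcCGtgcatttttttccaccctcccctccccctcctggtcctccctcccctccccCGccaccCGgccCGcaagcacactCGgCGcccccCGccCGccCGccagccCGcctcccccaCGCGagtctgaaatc
Igf2bp3 (chr6:49214955-49215204, minus strand): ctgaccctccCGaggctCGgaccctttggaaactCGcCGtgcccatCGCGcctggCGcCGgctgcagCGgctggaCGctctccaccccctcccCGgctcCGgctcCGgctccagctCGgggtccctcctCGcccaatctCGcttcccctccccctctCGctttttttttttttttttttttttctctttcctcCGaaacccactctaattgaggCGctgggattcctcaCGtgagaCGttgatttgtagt
Zfyve9 (chr4:108781089-108781338, minus strand): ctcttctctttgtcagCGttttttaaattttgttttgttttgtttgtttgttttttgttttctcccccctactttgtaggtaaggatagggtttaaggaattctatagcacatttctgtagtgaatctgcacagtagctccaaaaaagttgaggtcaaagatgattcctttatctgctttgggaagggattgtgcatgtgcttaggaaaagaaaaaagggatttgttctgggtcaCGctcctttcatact

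These windows held 33 CpG pairs for Ryk, 24 for Dip2c, 21 for Bmi1 and 21 for Igf2bp3, all above the median, against 2 for Zfyve9, whose window had a GC share of 37.2%. Of the 17 rises that passed in both fits, 12 had an entry. Of these, 5 lay above the median, the fifth being Arntl (16), and 7 below it: Zfyve9, Jup (13), Zfp712 (13), Hif3a (9), Plxnb3 (3), Myadm (1) and Gpr35 (0). Only 52 of the 71 genes that rose had an entry (73.2%), beside 81.8% of all genes tested. Their median was 17 CpG pairs, beside 15 over all genes. At most 4 pairs were found in 19.2% of them, beside 14.3% of all genes. The difference was not tested, and the genes without an entry limit it.

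Values are log2 signals as deposited. Array medians lay between 7.19 and 7.32. Per gene, arrays with the Ezh2 guide had a median SD of 0.188, those of BRSST+sgLuc 0.248 and those of sgLuc alone 0.154. BRSST+sgLuc replicates 2 and 5 stood farthest apart on the second principal component (37.1 and -32.2, all other arrays -6.96 to 14.2). The Y-linked genes Uty and Kdm5d were high on 2 of 4 BRSST+sgEzh2, 2 of 5 BRSST+sgLuc and all 4 sgLuc arrays. The tissue label matched its markers in that the mean of 9 primary granule genes of neutrophil precursors lay at 11.43 to 11.77 on BRSST+sgEzh2 and 11.53 to 11.75 on BRSST+sgLuc arrays, while that of 16 stromal, endothelial and bone cell genes lay at 6.46 to 6.80 and 6.47 to 6.81, below the array medians. In whole marrow, fewer cells of a type and less RNA per cell cannot be told apart.

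The transcript of Ezh2 itself was lower with its guide but did not pass the test. It read 8.08, 9.0, 8.81 and 9.22 on BRSST+sgEzh2 replicates 1 to 4, 9.86, 10.08, 10.46, 9.56 and 9.15 on BRSST+sgLuc replicates 1 to 5, and 9.94 to 10.55 with sgLuc (replicate numbers name the arrays and carry no order). BRSST+sgEzh2 replicate 1 was lowest, and the groups overlapped, with BRSST+sgEzh2 replicate 4 above BRSST+sgLuc replicate 5. The difference was -1.05 ± 0.26 (log2, SE, n = 4 and 5; limma adjusted p = 0.0808, two-sided exact permutation p = 0.0238). It passed without BRSST+sgLuc replicate 5 (-1.21, limma adjusted p = 0.0414). An edit need not lower the transcript, so this level checks the labels only in part. Among the other 11 PRC2 subunits tested, none passed. Rbbp7, a histone-binding subunit, was at 0.24 ± 0.12 (limma adjusted p = 0.421), Jarid2, a targeting cofactor, at 0.19 (0.448) and Ezh1, the alternative catalytic subunit, at 0.15 (0.693).

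Of 10601 genes tested, 71 were higher in BRSST+sgEzh2 marrow (0.67% of genes) and 12 lower (0.113%) at a limma adjusted p of 0.05, 0.783% in both directions together. The median size was log2 0.96 among the rises and -0.73 among the falls, and 32 rises and 5 falls reached 2-fold. Signals did not overlap between the groups for 63 of the 71 rises and 11 of the 12 falls, beside 2.52% of all tested genes with BRSST+sgEzh2 on top and 1.01% with BRSST+sgLuc on top. With only the 9 arrays of the groups compared in the fit, 17 genes passed (0.16%), all of them among the 71 rises, and no fall passed, while an unadjusted p under 0.05 was met by 790 genes in the upward and 316 in the downward direction. Leaving out sgLuc removed the arrays that varied least. For 17 of the 71 rises (a different count of genes) the BRSST+sgLuc mean lay below the array medians, so their differences rest on dim signals. Ryk, Zfyve9, Plag1, Igf2bp3, Dip2c, Hif3a, Mybl1, Penk, Apoc1 and Tln2 are among them, and no fold is given for these. For 14 of the 71 rises the signal filter was met only with the help of the arrays that carry the Ezh2 guide. Among these are all the genes just named except Mybl1. A count of calls among the tested members of a list is therefore partly set by the rise itself. The adjusted p-values printed for such genes are from fits with the filter, which they met with the help of their own rise. With no filter, 112 of 19505 genes were higher (0.574%), and all 83 calls of the main fit passed there as well. Counts over every list member on the array are given from that fit where such genes are concerned.

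**Figure D1:**
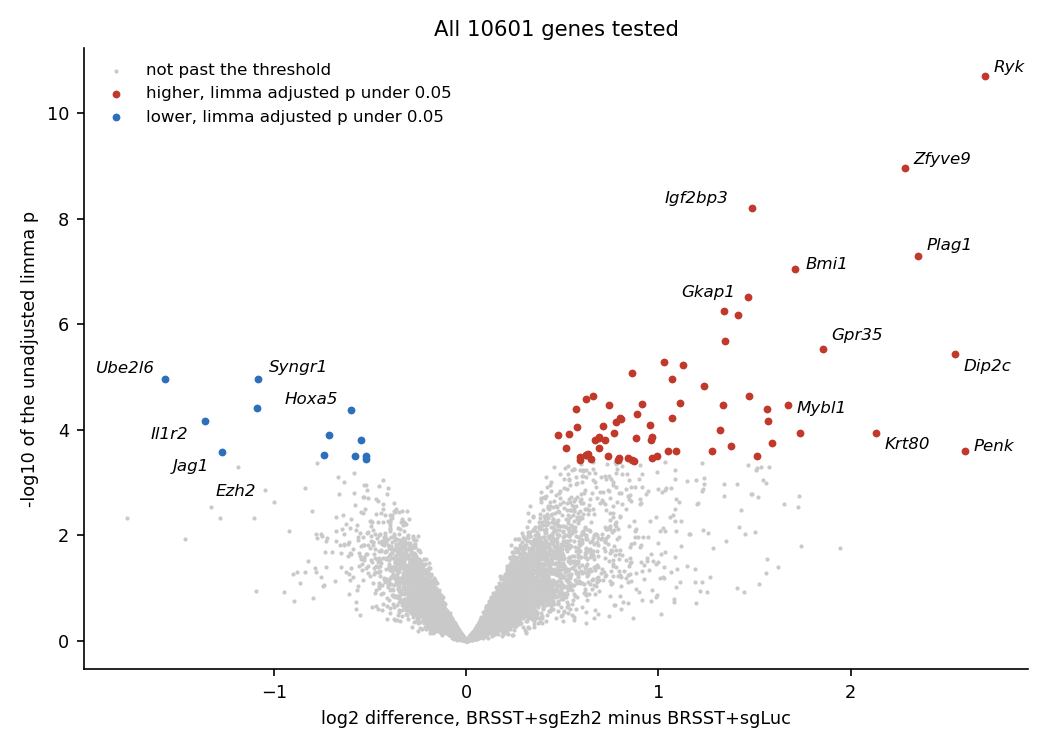
Each point is 1 of the 10601 genes tested, with the log2 difference between BRSST+sgEzh2 and BRSST+sgLuc marrow on the horizontal axis and minus log10 of the unadjusted limma p on the vertical axis. The 71 genes past the adjusted threshold on the right include Ryk, Zfyve9, Igf2bp3 and Plag1 at the top, and the 12 on the left are led by Ube2l6 in size; Ezh2 is labelled below the threshold.

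Ryk, a receptor that binds Wnt proteins, had the largest rise. It read 9.14, 9.73, 9.39 and 9.67 on the BRSST+sgEzh2 arrays, 6.58, 6.76, 6.98, 6.90 and 6.69 on the BRSST+sgLuc arrays and 6.64 to 7.08 with sgLuc. Every array with the Ezh2 guide lay more than log2 2 above every other array of the series (2.70 ± 0.14 between the groups compared, limma adjusted p = 2.11e-07, 1.94e-05 with only those groups in the fit). The filter left 7 of 23 Wnt ligands and receptors on the array, a list made with earlier results of these data known. Ryk is a marker chosen on these data, so counts in this list are partly set in advance and are no result about it. With no filter, 3 of the 23 were higher, beside 0.574% of all genes. These were Ryk, the Wnt co-receptor Ptk7 (0.77 ± 0.16, limma adjusted p = 0.0369 with no filter) and the Frizzled receptor Fzd4 (0.84 ± 0.16, limma adjusted p = 0.0307 with no filter), both dim and without overlap between the groups. Among the brighter members that did not pass were the receptor Fzd7 at -0.39 (limma adjusted p = 0.345 with the filter) and the co-receptors Lrp6 at 0.27 (0.367) and Lrp5 at 0.22 (0.719). Among 16 Wnt signal transducers and targets tested, 1 passed, beside 0.783% of all genes tested. It was Tcf7l2, a transcription factor that acts with beta-catenin, which rose. Tcf7l2 read 8.45, 8.98, 8.59 and 9.40 with the Ezh2 guide and 7.34, 7.26, 7.65, 6.76 and 7.89 without it, and differed by 1.47 ± 0.24 (limma adjusted p = 0.0119). Its call ended without BRSST+sgEzh2 replicate 4 (0.0511) and with only the groups compared (0.0555). Axis components such as Csnk1a1, a kinase that marks beta-catenin for degradation, at 0.32, and Lef1, a related transcription factor, at 0.49, did not pass (limma adjusted p = 0.281 and 0.456).

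Zfyve9, an endosomal anchor that presents Smad proteins to TGF-beta receptors, rose from dim signals. Its signals were 8.40, 8.24, 8.18 and 8.88 in BRSST+sgEzh2 and 6.32, 6.53, 5.98, 6.06 and 5.83 in BRSST+sgLuc marrow, with sgLuc between them at 7.19 to 7.27. The difference was 2.28 ± 0.16 (limma adjusted p = 5.7e-06, 0.000477 with only the groups compared). With no filter, 4 of 27 genes on the array in a list of TGF-beta receptors, Smads, ligands and partners were higher: Zfyve9, Eng, Bmpr1a and Acvr2b. The share over all genes was 0.574%. This list too was made with earlier results of these data known. Zfyve9 is a marker chosen on these data, so the count is partly set in advance and is no result about the list. Bmpr1a, a receptor for bone morphogenetic proteins, lay at 6.50 to 7.60 with the Ezh2 guide and 4.27 to 6.07 with BRSST+sgLuc (2.12 ± 0.33, limma adjusted p = 0.00827 with no filter). Acvr2b, an activin receptor, lay at 6.86 to 7.16 against 6.16 to 6.50 (0.72 ± 0.12, limma adjusted p = 0.0123 with no filter). With the filter, which left 20 of the list and neither of these, Zfyve9 passed and Eng (endoglin), a co-receptor, missed the threshold narrowly at 1.22 ± 0.27 (limma adjusted p = 0.0503). Zfyve16, an endosomal relative of Zfyve9 that the filter also left out, did not pass (0.80 ± 0.22, limma adjusted p = 0.128 with no filter). Of the brighter members, the ligand Tgfb1 was at 0.25 (0.211), the repressor Ski at 0.27 (0.325) and the common mediator Smad4 at -0.21 (0.416). Outside that list, Ldlrad4, a membrane protein that dampens TGF-beta signals, rose by log2 0.79 ± 0.17 (limma adjusted p = 0.0472), a call lost without BRSST+sgEzh2 replicates 1, 2, 3 or 4 or BRSST+sgLuc replicates 1 or 4 (up to 0.158).

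Bmi1 rose 3.28-fold. It read 9.38, 9.54, 9.31 and 9.78 with the Ezh2 guide, 7.86, 7.59, 7.56, 7.85 and 8.08 with BRSST+sgLuc and 6.88 to 7.68 with sgLuc. The lowest array with the Ezh2 guide lay more than log2 1 above the highest without it, and the difference of 1.71 ± 0.17 passed in both fits (limma adjusted p = 0.000192 and 0.000488). Among 18 PRC1 subunits tested, Bmi1, a marker chosen on these data, was the one that passed, beside 0.783% of all genes tested. The median of the list was log2 0.00, beside 0.01 over all genes. Cbx7, a reader of the PRC2 mark, was at 0.60 ± 0.16 (limma adjusted p = 0.0952), Phc1, a scaffold subunit, at 0.30 (0.27) and Yaf2, a subunit of variant complexes, at -0.26 (0.281). Commd3, the gene directly before Bmi1 in the RefSeq order, was at 0.13 (0.768) and Spag6, the next measured gene after it, at -0.12 (0.695).

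Plag1, a zinc finger transcription factor known as an oncogene, rose from dim signals. Its signals were 8.58, 9.08, 7.82 and 8.99 with the Ezh2 guide and 6.25, 6.20, 6.33, 6.05 and 6.49 with BRSST+sgLuc, and those of sgLuc were 6.30 to 6.96. BRSST+sgEzh2 replicate 3 was the lowest of its group and still above all arrays of the other groups (2.35 ± 0.22, limma adjusted p = 0.000136, and 0.00169 with only the groups compared). Chchd7, which encodes a small mitochondrial protein and directly follows Plag1 in the gene order, rose as well. It read 12.07, 12.18, 12.01 and 12.04 against 11.28, 11.70, 11.38, 11.25 and 11.06, a difference of 0.74 ± 0.12 (limma adjusted p = 0.014, 0.0775 with only the groups compared, 0.0517 without BRSST+sgEzh2 replicate 4). Penk, the precursor of enkephalin opioid peptides, follows Chchd7 with 2 coding genes between them. It read 9.77, 8.02, 10.26 and 9.73 against 6.19, 8.55, 7.15, 6.75 and 5.59, so BRSST+sgEzh2 replicate 2 lay below BRSST+sgLuc replicate 2. Its difference was 2.60 ± 0.53 (limma adjusted p = 0.0428, 0.144 with only the groups compared), and the call ended without BRSST+sgEzh2 replicates 1, 3 or 4 or BRSST+sgLuc replicates 1, 4 or 5 (up to 0.134). Mos, on the other side of Plag1, was too dim to be tested, with a difference of -0.06.

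Such runs of neighbours were rare among the calls. With at most 5 coding genes in gene order from one call to the next, the only groups were Plag1, Chchd7 and Penk on chromosome 4 and Mybl1 with Sgk3 on chromosome 1, with 1 coding gene between the latter pair. The genes on either side of Ryk, Amotl2 (-0.18, limma adjusted p = 0.649) and Slco2a1 (-0.19, 0.631), did not pass, nor did those beside Zfyve9, Cc2d1b (0.21, 0.68) and Btf3l4 (-0.02, 0.976). Beside Ezh2, Cul1 was at -0.24 (0.682).

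Igf2bp3, which binds messenger RNAs in fetal cells, had narrow groups far apart. It read 8.77, 8.35, 8.37 and 8.57 with the Ezh2 guide, 6.97, 7.08, 6.97, 7.20 and 6.92 with BRSST+sgLuc and 6.82 to 7.25 with sgLuc. The rise was log2 1.49 ± 0.12 from signals below the array medians (limma adjusted p = 2.16e-05, 0.000477 with only the groups compared). With no filter, Igf2bp3 and Plag1 were the 2 calls among 11 oncofetal genes on the array, beside 0.574% of all genes higher. They were also the 2 among 19 genes listed as silenced by PRC2. The lists share both genes, and they were made with earlier results of these data known. Plag1 is a marker chosen on these data, so both counts are partly set in advance and are no result about the lists. Of the 10 genes listed as silenced by PRC2 that met the filter, 4 lay above 0 and 6 below, with a median of -0.01. Another 9 of that list did not reach the signal needed for the filter, among them Lin28b (0.17 ± 0.11, limma adjusted p = 0.608 with no filter) and Wt1 (-0.26 ± 0.15, limma adjusted p = 0.543 with no filter). Igf2, the growth factor whose RNA Igf2bp proteins bind, was at 0.07 (limma adjusted p = 0.824), Hmga2, a chromatin protein of fetal cells, at -0.04 (0.924) and Arid3a, a DNA-binding protein of fetal haematopoiesis, at 0.32 (0.281).

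**Figure D2:**
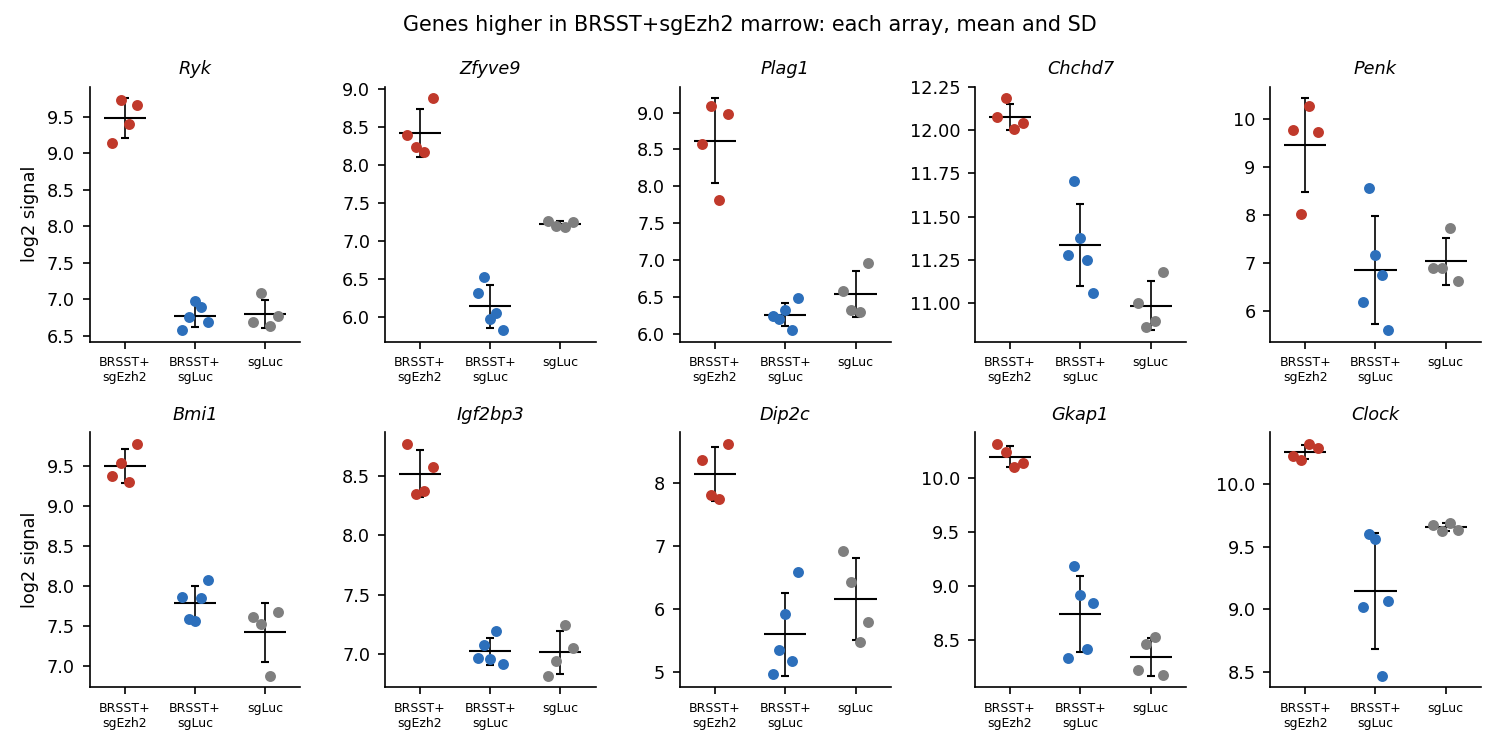
Each panel shows the log2 signal of a gene on every array of the 3 groups, with bars for the mean and SD. For Ryk, Zfyve9, Plag1, Bmi1, Igf2bp3, Dip2c, Gkap1 and Clock the 4 BRSST+sgEzh2 arrays lie above all 9 others; for Chchd7 they do too, while Penk overlaps with BRSST+sgLuc.

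Another 12 rises passed both with all 13 arrays and with only the groups compared. Dip2c had the largest difference of the 12. It read 8.37, 7.82, 7.75 and 8.62 with the Ezh2 guide against 4.97, 5.35, 5.91, 5.17 and 6.59 (2.54 ± 0.35, limma adjusted p = 0.00359). Its control signals are among the dim ones, so its fold is uncertain, but no array of BRSST+sgLuc reached the lowest of BRSST+sgEzh2. Gkap1, an anchor of cGMP-dependent protein kinase, read 10.32, 10.24, 10.11 and 10.14 against 8.33, 9.18, 8.91, 8.42 and 8.84 (1.47 ± 0.16, limma adjusted p = 0.000536). Hif3a, an alpha subunit of the hypoxia-inducible factors, read 8.70, 8.39, 8.41 and 8.71 against 7.06, 7.03, 7.22, 7.69 and 6.69 (1.42 ± 0.17, 0.000883). Plxnb3, a plexin that binds semaphorins, read 8.93, 8.78, 8.70 and 9.57 against 7.47, 7.73, 7.73, 7.77 and 7.58 (1.34 ± 0.15, 0.000849). For these 4 genes the sgLuc arrays lay below all arrays with the Ezh2 guide as well, at 5.48 to 6.93, 8.17 to 8.53, 6.47 to 6.75 and 6.89 to 7.10 in the order named.

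In 6 of the 12, sgLuc signals reached those with the Ezh2 guide, among them Arntl, described further on. Gpr35, a G protein-coupled receptor, read 9.78, 9.83, 9.64 and 10.37 against 8.04, 8.47, 8.76, 7.60 and 7.39, with sgLuc at 9.39 to 9.73 (1.85 ± 0.25, limma adjusted p = 0.00305). Slc15a3, a peptide and histidine transporter of lysosomes, read 11.59, 11.08, 11.38 and 11.76 against 10.24, 10.34, 10.65, 10.56 and 10.31, with sgLuc at 11.60 to 11.97 (1.03 ± 0.14, 0.00463). Myadm, a membrane protein of differentiating myeloid cells, read 10.82, 10.58, 10.50 and 10.65 against 9.75, 9.52, 9.60, 9.94 and 9.03, with sgLuc at 10.46 to 10.90 (1.07 ± 0.16, 0.00692). In each of these the BRSST+sgLuc arrays were the low ones. Zfp712, a zinc finger protein, read 8.41, 8.43, 8.43 and 8.70 against 7.80, 7.85, 7.53, 7.47 and 7.51, with sgLuc at 8.38 to 8.84 (0.86 ± 0.13, 0.00621). Mybl1, a MYB family transcription factor, read 7.75, 8.14, 7.90 and 8.08 against 5.88, 6.04, 7.33, 6.21 and 6.01, with sgLuc at 7.71 to 8.73 (1.68 ± 0.28, 0.014), and BRSST+sgLuc replicate 3 stood above the rest of its group. Mybl1 lost its call without BRSST+sgEzh2 replicate 4 (0.067). In the list of 10 Myb family members and partners it was the call, beside 0.783% of all genes tested. Myb itself was at 0.54 (0.143). Of the 10, 4 lay above 0 and 6 below, with a median of -0.18.

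The last 3 of the 12 encode a membrane-binding protein, a junction protein and a clock factor. Anxa6, an annexin that binds membranes in the presence of calcium, read 9.81, 9.72, 9.89 and 9.92 against 8.14, 8.90, 8.95, 8.26 and 8.21 (1.35 ± 0.17, limma adjusted p = 0.00244), and sgLuc lay between at 9.29 to 9.67. Jup (plakoglobin), a catenin of cell junctions, read 8.69, 8.75, 8.38 and 9.11 against 7.76, 7.67, 7.74, 7.53 and 7.33 (1.13 ± 0.16, 0.00491), with sgLuc at 7.57 to 8.13. Arntl, the partner of Clock in the circadian transcription factor, read 8.28, 8.59, 8.42 and 8.96 against 7.16, 7.57, 7.50, 7.35 and 6.55 (1.33 ± 0.22, 0.014, lost without BRSST+sgEzh2 replicate 4 at 0.067), and the highest sgLuc array (7.40 to 8.32) reached the lowest with the Ezh2 guide. Clock itself passed with all arrays in the fit. It read 10.23, 10.20, 10.32 and 10.29 against 9.02, 9.60, 9.56, 8.47 and 9.06, with sgLuc at 9.62 to 9.69 (1.11 ± 0.18, limma adjusted p = 0.014). Its call ended with only the groups compared (0.0985) and without BRSST+sgEzh2 replicate 4 (0.0585).

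Of the remaining rises, Chn2, a chimaerin that switches off Rac, and Slfn10-ps, a Schlafen pseudogene, kept their calls in all 9 fits that left out 1 array, at 1.24 ± 0.19 and 0.62 ± 0.10 (limma adjusted p = 0.00889 and 0.0129), though not with only the groups compared (0.0547 and 0.0557). Papss1, which makes the sulfate donor of the cell, rose by 0.66 ± 0.11 and Sh3bp5, an exchange factor for Rab GTPases, by 0.91 ± 0.15 (limma adjusted p = 0.0119 and 0.014), both lost without BRSST+sgEzh2 replicate 4 (0.0517 and 0.067). St3gal3, a sialyltransferase, rose by 0.89 ± 0.15 and Sgk3, a kinase downstream of phosphoinositides, by 0.57 ± 0.10 (limma adjusted p = 0.0174 and 0.0149). St3gal3 lost its call without BRSST+sgEzh2 replicates 1 or 4 (up to 0.0735), and Sgk3 without BRSST+sgEzh2 replicates 1 or 4 or BRSST+sgLuc replicate 1 (up to 0.067). For Sgk3 the signals were 10.02 to 10.37 with the Ezh2 guide, 9.50 to 9.78 with BRSST+sgLuc and 10.31 to 10.48 with sgLuc.

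Further rises that belong to no list were chosen for description after their values were seen. Ctnna1 (alpha-catenin) rose by 0.57 ± 0.11, Tln2, a talin, by 0.97 ± 0.19, Itga4, the alpha chain of an integrin that holds progenitors in the marrow, by 0.72 ± 0.14, Spire1, an actin nucleator, by 1.59 ± 0.32 and Cdc42bpb, a kinase that acts on myosin, by 0.80 ± 0.14. Their limma adjusted p ran from 0.0193 for Cdc42bpb to 0.0344 for Spire1, and from 0.0985 to 0.144 with only the groups compared, so that none passed there. Leaving out any of 4 to 6 arrays ended each call. For all 5 these included replicates 1 and 4 with the Ezh2 guide and replicate 1 of BRSST+sgLuc. Signals of Spire1 overlapped (8.99 to 9.83 with the Ezh2 guide, 7.30 to 9.25 without it, where BRSST+sgLuc replicate 3 was highest), and those of the other 4 did not. Also among the rises were Pygb, a glycogen phosphorylase (0.78), Npl, which breaks down sialic acid (0.59), Ids (0.88) and Arsg (0.69), both sulfatases, and Chst15, a sulfotransferase (0.86). Their limma adjusted p lay between 0.0205 and 0.049, and leaving out any of 4 to 7 arrays ended each call, for every gene replicate 4 with the Ezh2 guide and replicates 1 and 4 of BRSST+sgLuc.

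Apoc1, a small apolipoprotein made by macrophages among other cells, rose by 1.57 ± 0.28. It read 8.38, 7.98, 8.02 and 8.40 against 6.40, 7.59, 6.63, 6.81 and 5.68, and 5.84 to 6.44 with sgLuc (limma adjusted p = 0.0204). Its call ended without BRSST+sgEzh2 replicates 1 or 4 or BRSST+sgLuc replicate 1 (up to 0.088). With no filter it was the call among 10 lipid-handling genes on the array, beside 0.574% of all genes higher. Apoe, its neighbour in function, was at 0.64 (0.34) and the cholesterol exporter Abca1 at 0.46 (0.599). Krt80, a keratin, was the call among 4 epithelial genes tested, beside 0.783% of all genes tested. It read 10.20, 8.93, 9.61 and 10.54 against 7.73, 8.34, 8.60, 7.33 and 6.45, with sgLuc at 9.23 to 10.09 (2.13 ± 0.40, 0.0282), and was lost without BRSST+sgEzh2 replicates 1, 3 or 4 or BRSST+sgLuc replicates 1 or 4 (up to 0.113). The other epithelial genes tested, Krt14, Krt18 and Cdh1, were at -0.09, 0.07 and 0.07, and 5 more on the array, Epcam, Krt8, Krt19, Krt5 and Cldn4, were too dim to be tested.

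Genes that fell were fewer and smaller in size. Ube2l6, the enzyme that passes the ubiquitin-like protein ISG15 to its targets, fell most, by log2 1.56 ± 0.24, to a mean below the array medians. It read 6.25, 6.82, 7.27 and 7.31 with the Ezh2 guide, 8.40, 9.21, 8.30, 8.06 and 8.41 with BRSST+sgLuc and 8.97 to 9.24 with sgLuc. Every array with the Ezh2 guide lay below every other array (limma adjusted p = 0.00692, 0.0557 with only the groups compared), and the call held in all 9 fits that left out 1 array. Ube2l6 was alone in passing among 6 genes of ISG15 conjugation, beside 0.783% of all genes tested. Isg15 itself was at 0.16 (limma adjusted p = 0.788), its activating enzyme Uba7 at 0.13 (0.687) and the ISG15 protease Usp18 at 0.10 (0.906). None of 14 interferon-stimulated genes tested passed, with the RNA sensor Ddx58 at -0.34 (0.313). Of the 14, 9 lay above 0 and 5 below, with a median of 0.15.

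Syngr1, a vesicle membrane protein, also held in all 9 fits. It read 9.04, 9.18, 8.91 and 8.69 against 10.31, 10.18, 10.21, 10.06 and 9.43, with sgLuc at 9.13 to 9.26 (-1.08 ± 0.16, limma adjusted p = 0.00692, 0.0557 with only the groups compared). BRSST+sgLuc replicate 5 was the low array of its group. Il1r2, the decoy receptor that absorbs interleukin 1, read 10.73, 10.63, 10.06 and 11.13 against 12.39, 11.37, 11.63, 12.25 and 12.33, with sgLuc at 10.45 to 11.05 (-1.36 ± 0.24, 0.0202), and its call ended without BRSST+sgEzh2 replicates 1 or 3 or BRSST+sgLuc replicates 1 or 4 (up to 0.0684) and with only the groups compared (0.0985). Among 14 genes of the interleukin 1 system it was the call, beside 0.783% of all genes tested. The signalling receptor Il1r1 was at 1.04 ± 0.26 (0.0782) and the receptor antagonist Il1rn at 1.12 (0.237), both above 0 and not past the threshold.

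Jag1, a ligand of Notch receptors, fell by 1.27 ± 0.26. It read 7.03, 7.14, 7.03 and 7.61 against 8.82, 7.47, 8.76, 8.27 and 9.04, so BRSST+sgLuc replicate 2 lay inside the range with the Ezh2 guide, and sgLuc was at 8.16 to 8.69 (limma adjusted p = 0.0442, lost without any of 7 arrays at up to 0.116, with BRSST+sgLuc replicates 2 and 3 the exceptions, and 0.146 with only the groups compared). Wdr73 read 6.80, 7.33, 6.97 and 7.24 against 7.88, 7.56, 7.89, 7.69 and 8.11 (-0.74 ± 0.16, 0.0457, lost without BRSST+sgEzh2 replicates 1, 3 or 4 or BRSST+sgLuc replicates 1, 4 or 5 at up to 0.122). Osgepl1, which modifies mitochondrial tRNAs, read 8.42, 7.98, 8.24 and 8.28 against 9.23, 8.78, 8.82, 9.17 and 8.72 (-0.71 ± 0.14, 0.0286, lost without BRSST+sgEzh2 replicates 2, 3 or 4 or BRSST+sgLuc replicates 1 or 4 at up to 0.0857). Neither passed with only the groups compared (0.122 and 0.122), and for both the sgLuc signals overlapped those with the Ezh2 guide (6.70 to 7.35 and 8.06 to 8.45). Ginm1 (-0.58), Ctdspl, a phosphatase (-0.55), and Msantd3 (-0.52) fell by less, with limma adjusted p from 0.0307 to 0.0485, each lost when any of 6 or 7 arrays was left out, including all 4 with the Ezh2 guide and replicates 1 and 4 of BRSST+sgLuc.

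Hoxa5, a homeobox transcription factor, fell by 0.60 ± 0.10. It read 7.09, 7.17, 7.24 and 6.85 with the Ezh2 guide, 7.77, 7.60, 7.56, 7.77 and 7.73 with BRSST+sgLuc and 6.87 to 7.06 with sgLuc (limma adjusted p = 0.0149, 0.0985 with only the groups compared), and lost its call without BRSST+sgEzh2 replicates 1 or 4 or BRSST+sgLuc replicates 1 or 4 (up to 0.0588). It was the call among 8 Hoxa, Meis and Pbx genes tested, beside 0.783% of all genes tested. Hoxa6 was at -0.50 (0.153), Hoxa10 at 0.18 (0.564) and the cofactor Pbx3 at 1.01 (0.264), so members lay on both sides of 0. All 5 Hoxb genes tested were below 0 and none passed, with Hoxb2 at -0.40 ± 0.13 (0.184) and Hoxb5 at -0.37 ± 0.16 (0.309).

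**Figure D3:**
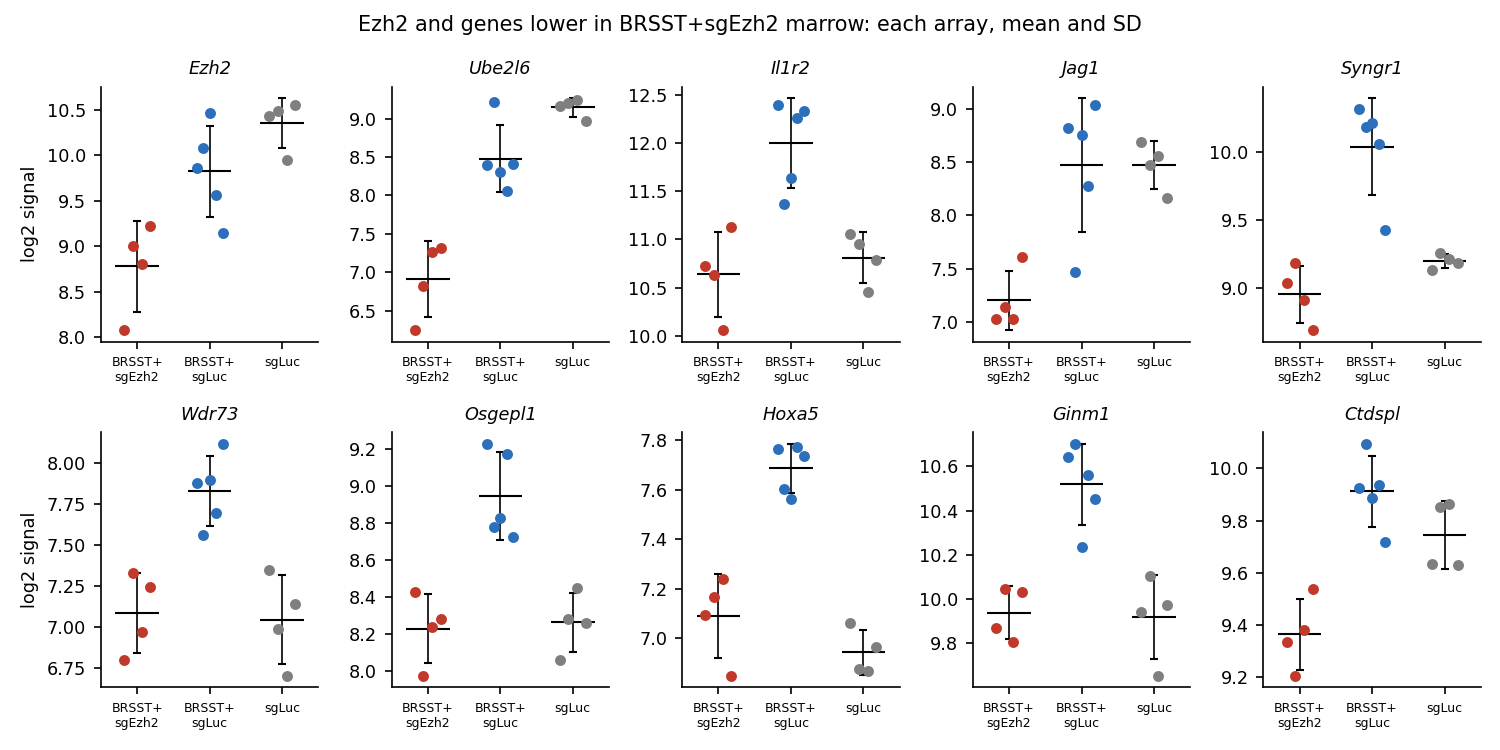
Each panel shows the log2 signal of Ezh2 or of a gene lower in BRSST+sgEzh2 marrow on every array of the 3 groups, with bars for the mean and SD. The BRSST+sgEzh2 arrays lie below all BRSST+sgLuc arrays except for Ezh2 and Jag1, where the groups overlap; for Ezh2, Ube2l6, Jag1 and Ctdspl they also lie below all sgLuc arrays.

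Markers of several blood cell types lay mostly on one side of 0 without passing. All 10 erythroid genes tested were below 0, with a median of -0.57, beside 52.6% of all genes above 0 and a median of 0.01. Car1, a carbonic anhydrase of red cells, was at -1.77 ± 0.53 (limma adjusted p = 0.145), Rhag, part of the Rhesus complex, at -1.28 ± 0.38 (0.145) and Alas2, which starts heme synthesis, at -0.77 ± 0.26 (0.208). The mean signal of the 16 list members on the array was 6.90 to 7.57 with the Ezh2 guide, 7.49 to 8.25 with BRSST+sgLuc and 7.05 to 7.28 with sgLuc. Of 15 B lineage genes 14 were above 0 (median 0.82), and of 11 T and NK cell genes 10 (median 1.20), with 0 calls in either. The B lineage mean was 6.65 to 8.62 against 6.53 to 8.18, and the T and NK mean 6.07 to 8.06 against 6.06 to 7.60, so arrays of the groups overlapped widely. For Il2rb, an interleukin receptor chain of these cells, BRSST+sgEzh2 replicate 1 read 6.11 where the others read 8.90 to 10.00, and BRSST+sgLuc arrays read 6.21 to 8.30. Il7r, a receptor of lymphoid precursors, was likewise low on BRSST+sgEzh2 replicate 1 (4.88, others 6.97 to 7.23).

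Myeloid markers split by class. Of 19 monocyte and macrophage genes 15 were above 0 (median 0.62) and 1 passed, beside 0.783% of all genes tested. This was Mpeg1, a pore-forming protein of macrophages. Mpeg1 read 11.16, 10.63, 10.87 and 11.43 against 9.08, 9.84, 10.66, 9.01 and 9.64, with sgLuc at 11.03 to 11.20. Its difference was 1.38 ± 0.28 (limma adjusted p = 0.0371, lost without BRSST+sgEzh2 replicates 1, 3 or 4 or BRSST+sgLuc replicates 1, 4 or 5 at up to 0.133). BRSST+sgLuc replicate 3 lay inside the range with the Ezh2 guide. Just short of the threshold were F13a1, a clotting factor subunit of monocytes, at 0.99 ± 0.23 (0.0594), Csf1r, the receptor for the macrophage growth factor, at 0.84 ± 0.19 (0.0603), and Fcgr1, an antibody receptor, at 1.22 ± 0.31 (0.082), while C1qb, a complement chain of tissue macrophages, was at -0.65 (0.181). The list mean was 8.78 to 9.53 with the Ezh2 guide, 8.29 to 9.26 with BRSST+sgLuc and 9.29 to 9.41 with sgLuc. With B lineage, monocyte and erythroid list means as covariates 2 genes passed, Ryk (higher) and Ube2l6 (lower), and the median standard error per gene grew from 0.149 to 0.29.

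Neutrophil lists stayed near 0. No member of the 9 primary granule or 12 mature neutrophil genes passed (medians 0.02 and 0.05), with Mpo, the peroxidase of early granules, at 0.07 (0.796), Elane, neutrophil elastase, at -0.10 (0.705) and Csf3r, the receptor for the neutrophil growth factor, at 0.39 ± 0.10 (0.0948). Siglecf, a lectin of eosinophils, rose by 0.97 ± 0.21 (8.51 to 9.50 against 7.48 to 8.35, limma adjusted p = 0.0472). Its call was lost without BRSST+sgEzh2 replicates 1, 2 or 4 or BRSST+sgLuc replicates 1, 4 or 5 (up to 0.137). Siglecf was the call among 9 mast cell, basophil and eosinophil genes, beside 0.783% of all genes tested. Cpa3, a mast cell protease, was at 1.34 ± 0.35 (0.0911). Of these 9 genes, 4 lay above 0 and 5 below, with a median of -0.03. No dendritic cell or MHC class II gene (12 tested), megakaryocyte gene (9), plasma cell gene (7), stromal gene (6) or stem and progenitor gene (10) passed. In the last list 8 of 10 were above 0, with Cd34, a progenitor surface protein, at 0.85 ± 0.31 (0.241).

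No gene of the cell cycle lists passed either. Of 25 mitosis and S phase genes 19 were above 0 (median 0.12), with Mcm4, a subunit of the replicative helicase, at 0.46 ± 0.27 (limma adjusted p = 0.471). Among 9 cell cycle inhibitors, Cdkn1b was at 0.29 (0.281) and Cdkn2d at -0.32 (0.27). Cdkn2a, the classical Polycomb target of this class, was too dim for the filter. It lay at 5.20 to 6.18 with the Ezh2 guide, 4.36 to 5.08 with BRSST+sgLuc and 4.53 to 4.66 with sgLuc, without overlap, and just missed the threshold with no filter (0.85 ± 0.18, limma adjusted p = 0.0525 with no filter). Of 13 histone demethylases and methyltransferases that oppose Polycomb, 0 passed (median -0.06), with Setd1b at -0.28 (0.392) and Kmt2d at -0.22 (0.426).

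**Figure D4:**
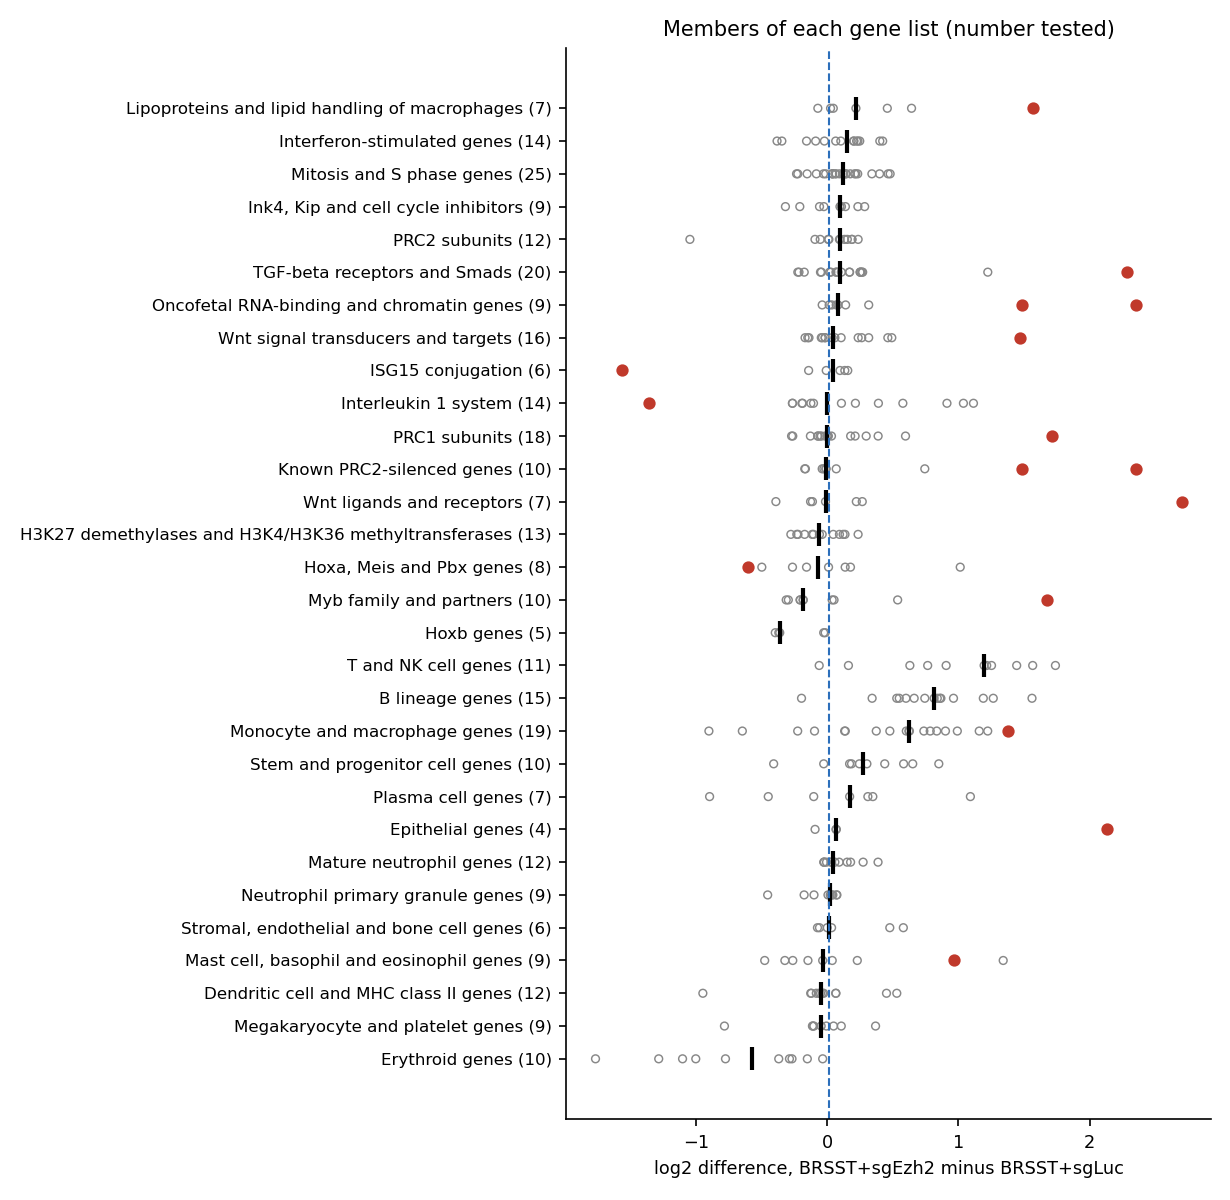
Each row is a gene list with the number of members tested in brackets, and each circle a member that met the signal filter, at its log2 difference between BRSST+sgEzh2 and BRSST+sgLuc marrow; filled circles passed a limma adjusted p of 0.05, black bars mark list medians and the dashed line the median of all genes (0.01). Most pathway lists centre near the line with 1 or 2 members far out, whereas the B lineage, T and NK, monocyte and erythroid lists lie mostly on one side of it with 0 or 1 call each.

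The count of calls rested on which arrays were in the fit. Of the 83 calls, 19 held in all 9 fits that left out 1 array, 9 held in 8 of them, 14 in 5 to 7 and 41 in fewer than 5, with 2 as the lowest number. Leaving out BRSST+sgEzh2 replicate 4 ended 62 of the 83 calls, BRSST+sgLuc replicate 1 ended 54, BRSST+sgEzh2 replicate 1 ended 50 and BRSST+sgLuc replicate 4 ended 49, and the totals were then 22, 29, 36 and 34. Leaving out BRSST+sgLuc replicate 2 or 3 ended none and brought the totals to 257 and 377. Across the 71 rises, the BRSST+sgLuc array closest to the other group was replicate 3 for 32 genes and replicate 2 for 21, against 3 for replicate 1. On the other side the closest BRSST+sgEzh2 array was replicate 4 for 2 genes, and replicates 1, 2 and 3 for 20, 23 and 26. So BRSST+sgLuc replicates 2 and 3 lay closest to the other group for most rises, and BRSST+sgEzh2 replicate 4 seldom did.

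**Figure D5:**
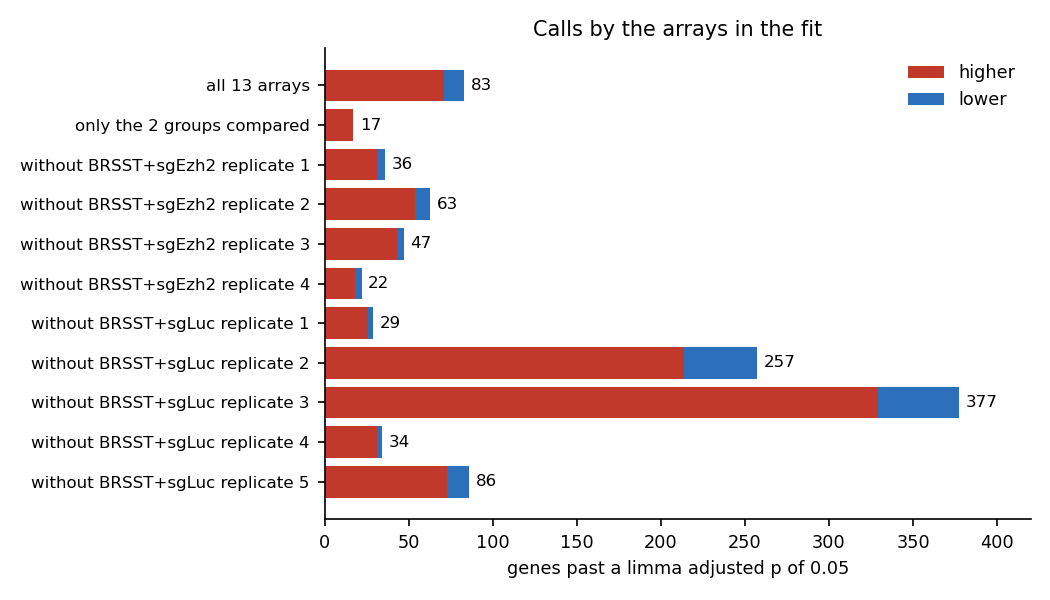
Bars count the genes higher (red) and lower (blue) in BRSST+sgEzh2 marrow at a limma adjusted p of 0.05, on a linear axis, for all 13 arrays, for each of the 9 compared arrays left out in turn, and for only the 2 groups compared. Totals run from 17 with only the 2 groups to 377 without BRSST+sgLuc replicate 3, beside 83 with all arrays.

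At the threshold itself, Trim16, Chst15 and Olr1 were the last to pass, at limma adjusted p of 0.0485, 0.049 and 0.0495 with differences of 0.59, 0.86 and 0.87. Aldh4a1, Tfec and Agrn were the first that did not, each at 0.0503, with differences of 0.66, 0.77 and 0.80. The genes on both sides were of like size.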

How the data were processed

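The authors deposited log2 signals, 1 per row and array. The submitters' processing notes name R 3.5.01 and oligo. The sources used here do not give the background correction or normalization, and the log2 scale was read from the values. Per the labels' protocols, 2 ng of RNA was amplified with 10 PCR cycles, which can alter differences in level. Of 22203 rows, 19572 had 1 gene symbol. For the 55 symbols on several rows, the row with the highest mean stood for the gene. Testing needed a signal over the median of the array on 4 or more arrays, which 10601 of 19505 genes had. A single limma 3.58.1 model (R 4.3.3) covered all 13 arrays, with Benjamini-Hochberg adjustment over all genes and a threshold of 0.05; every adjusted p is from limma. The procedure was tested on simulated data. The number of arrays limits the precision.

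Members and lists were chosen with earlier results of these data known. Ryk, Plag1, Zfyve9 and Bmi1 were chosen as markers on these data, so counts of calls in lists that hold them are partly set in advance. Any called gene could be named, leaving out model and clone symbols (Gm, Rik and the like); values on every array were given for Ezh2, Ryk, Plag1, Zfyve9, Bmi1, genes passing both fits and the 6 largest falls, and 2 members with the smallest p were taken from lists without a call. Other list members were added for context after their values were seen. A large rise is not reported here. Fits within each Y-linked class, and list counts with no filter, were added after seeing the data. Figures were drawn with matplotlib 3.10.9.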

Additional observations from a re-analysis of the deposited data

Results flagged for a closer look

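In 13 of 242 groups of arrays (5.37%), 1 array stood far from the rest, and chance alone flags about 1 in 20. The value given is the gap to the nearest array as a share of the group's range. With the Ezh2 guide, replicate 4 was high for Zfp712 (0.923), Chil1 (0.874) and Sh2d1b1 (0.862), replicate 3 was high for Pecam1 (0.89) and low for Birc5 (0.87) and Msantd3 (0.849), and replicate 1 was low for Il7r (0.891). In BRSST+sgLuc, replicate 3 was high for Csf3r (0.838), Sh3bp5 (0.827) and Mybl1 (0.767), replicate 2 was high for Slc39a4 (0.828), and replicate 5 was high for Pdgfrb (0.837) and low for Syngr1 (0.71).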

How the results depend on the processing

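The count of 83 genes (71 higher, 12 lower) moved with most choices. It was 128 (112 higher) with no filter on low signals and 36 (29 and 7 lower) with the stricter filter. Equal medians gave 55 (47 higher) and quantile normalization 61 (47 higher and 14 lower). Array quality weights gave 1039 (694 and 345), the Y-linked class as a block 170 (154 higher), only the groups compared 17 (17 and 0), and leaving out both BRSST+sgLuc replicates 2 and 5 143 (124 and 19). An adjusted p of 0.01 left 18 (16 and 2) and a 2-fold minimum 37 (32 and 5). Within the Y-linked classes, chosen after seeing the data, 1 gene, Ryk, passed among the low arrays (1 and 0) and 722 among the high ones (514 and 208). The high class held 2 BRSST+sgEzh2, 2 BRSST+sgLuc and all 4 sgLuc arrays, the low class 2, 3 and 0. The 2 fits thus differ in arrays and in the estimate of the spread, so their counts cannot be compared with each other. Leaving out 1 array gave 22 to 377 genes, 18 to 329 higher and 3 to 48 lower. With the replicate number as a block 28 passed (22 and 6), 22 of them among the 83. Same-numbered samples correlated at 0.18, -0.043, -0.10 and -0.16. These values show no pairing by number, but cannot settle whether equal numbers share a batch. With B lineage, monocyte and erythroid list means as covariates Ryk and Ube2l6 passed (2 genes, 1 and 1), and Slc39a4 turned to -0.11, Ms4a3 to 0.37, Ltf to -0.054, Itgax to -0.13, Il7r to -0.69, Slamf7 to -0.58, Il2rb to -0.45, Slco2a1 to 0.18, Commd3 to -0.15 and Spag6 to 0.044. Cc2d1b was at -0.0053 in the high class, and Btf3l4 ranged from -0.080 to 0.063 with 1 array left out. Ezh2 passed with array weights (-1.22, limma adjusted p = 0.00581), and ranged from -1.21 to -0.81 with 1 array left out. The causes were not tested. Dim signals limit 17 of the 71 rises.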

Other observations

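Of 2631 rows without a gene symbol, 1164 met the same signal filter. In their own fit 9 passed a limma adjusted p of 0.05, 7 higher and 2 lower in BRSST+sgEzh2 marrow, the largest rise being log2 1.21 (limma adjusted p = 0.0115).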
